A study of Mus musculus with 18 samples.

Results

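Genes of the early secretory pathway carry proteins into the endoplasmic reticulum (ER), process them there and load them into vesicles to and from the Golgi. The genes described here are the 66, of 19938 tested, whose array symbol begins as those of the signal recognition particle, the Sec proteins, the translocon-associated proteins, signal peptidase, the Pdia disulfide isomerases, the p24 proteins (Tmed) or the KDEL receptors, or names 1 of 7 COPI coat subunits. The rule reads symbols only, and it also takes 6 genes outside this machinery (Sec1 and Sec14l1 to Sec14l5). Each was read from 1 probe set, the one with the highest mean over the arrays where a symbol had several.

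Expression was measured on 1-colour microarrays in small intestinal crypt cells of 4-month-old C57Bl6/J mice with the genotype FltpZV/+, in which 1 allele of Flattop (Cfap126) carries a Venus fluorescent reporter. All 3 groups come from such mice, and the labels tell them apart only by the sort gate: reporter-negative, reporter-low and reporter-high cells. Each gate has 2 arrays, and every array is a pool from 2 animals. The labels do not say whether gates shared animals, so p-values measure only the spread between these arrays. A further 12 arrays, from the lineage-tracing cross of FltpT2AiCre with Gt(ROSA)26mTmG, were not analysed here.

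In outline, a signal peptide leaving the ribosome is bound by the signal recognition particle (SRP), docked at the SRP receptor and threaded through the Sec61 channel with help from the translocon-associated protein (TRAP) complex. Signal peptidase removes the signal peptide and disulfide isomerases shape the chain. COPII vesicles then carry it towards the Golgi with the aid of p24 cargo receptors, while COPI vesicles and KDEL receptors bring escaped ER residents back. In the crypt the heaviest users of this route are Paneth cells, which secrete antimicrobial proteins, goblet cells, which secrete mucus, and enteroendocrine cells, which secrete hormones.

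A small set of these genes passed the test. Tmed6, a p24 protein gene, was 10.6-fold higher in reporter-low and 23.2-fold higher in reporter-high cells than in negative cells. The signal peptidase genes Sec11c and Spcs3 rose 2.78-fold and 2.86-fold in high cells, and Ssr3, the gamma subunit of TRAP, rose 1.96-fold. Tmed8, with a GOLD domain like the p24 proteins, rose 3.41-fold in low over negative cells and fell from low to high cells. Sec23a, an inner subunit of the COPII coat, fell in both reporter gates. In all, 8 of the 66 genes passed the test in at least 1 comparison and 58 passed in none. The share of all genes that passed in at least 1 comparison was not counted. At an unadjusted p under 0.05, 5 were higher and 5 lower in low against negative cells, 18 and 8 in high against negative cells, and 9 and 3 in high against low cells. The share of all genes at that p was not counted, here or for the groups and lists below. These counts therefore cannot show an excess over all genes.

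Values are log2 RMA values, differences are on the log2 scale with the standard error of limma, and a gene was called when its p, adjusted over all genes, lay under 0.05. In low against negative cells 2 members were called higher and 1 lower, where 3.42% of all genes were called higher and 2.54% lower. In high against negative cells 4 were called higher and 1 lower, against 1.36% and 3.35% of all genes. In high against low cells 2 were called in each direction, against 1.01% higher and 3.89% lower, and 1 in each direction (Sec14l2 and Sec14l1) lies outside the machinery. The low and high gates are set against the same negative arrays in the first pair of comparisons. As shares of the 66 members, the calls came to 3.03% higher and 1.52% lower in low cells, 6.06% and 1.52% in high against negative cells, and 3.03% each way in high against low cells. The shares called higher in the high gate, which rest on 4 and 2 genes, exceeded those of all genes. The shares called lower did not, nor did that called higher in low cells. All genes include many dim ones, while 61 of the 66 members lay above background on average. With dim genes left out, 3, 5 and 5 of the 61 members kept were called in the 3 comparisons. In those fits 9.61%, 8.17% and 7.55% of the genes kept were called, not split by direction. These shares rest on few members and were not tested against each other, so they cannot show an excess over all genes.

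The counts moved with single arrays, as did the calls over all genes. In low against negative cells 1 member was called without negative replicate 2 or without low replicate 2, in each case Tmed6, where 0.988% and 2.09% of all genes were called, against 5.96% with all arrays. In high against negative cells Tmed6 alone was called without either negative array, and without high replicate 1 the count was 11, with Pdia2, Sec11c, Sec63, Spcs3, Ssr3, Tmed6 and Tmed9 higher and Pdia4, Sec11a, Sec23a and Sec24c lower. In these fits 0.0752% (without negative replicate 1), 0.0652% (without negative replicate 2) and 9.62% of all genes were called, against 4.71% with all arrays. Between high and low cells limma called 0 members without low replicate 1 (8 at an unadjusted p under 0.05, 6 of them higher) and 0 without low replicate 2 (11, 9 of them higher), and 1, Sec22c, without high replicate 2, where 1.96%, 1.91% and 3.75% of all genes were called, against 4.91% with all arrays. Scaling moved the split as well: with quantile normalization 2 were higher and 0 lower in low against negative cells, 6 and 0 in high against negative cells, and 7 and 1 in high against low cells. With arrays centred on their medians, high against negative cells gave 4 higher and 2 lower.

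**Figure D1:**
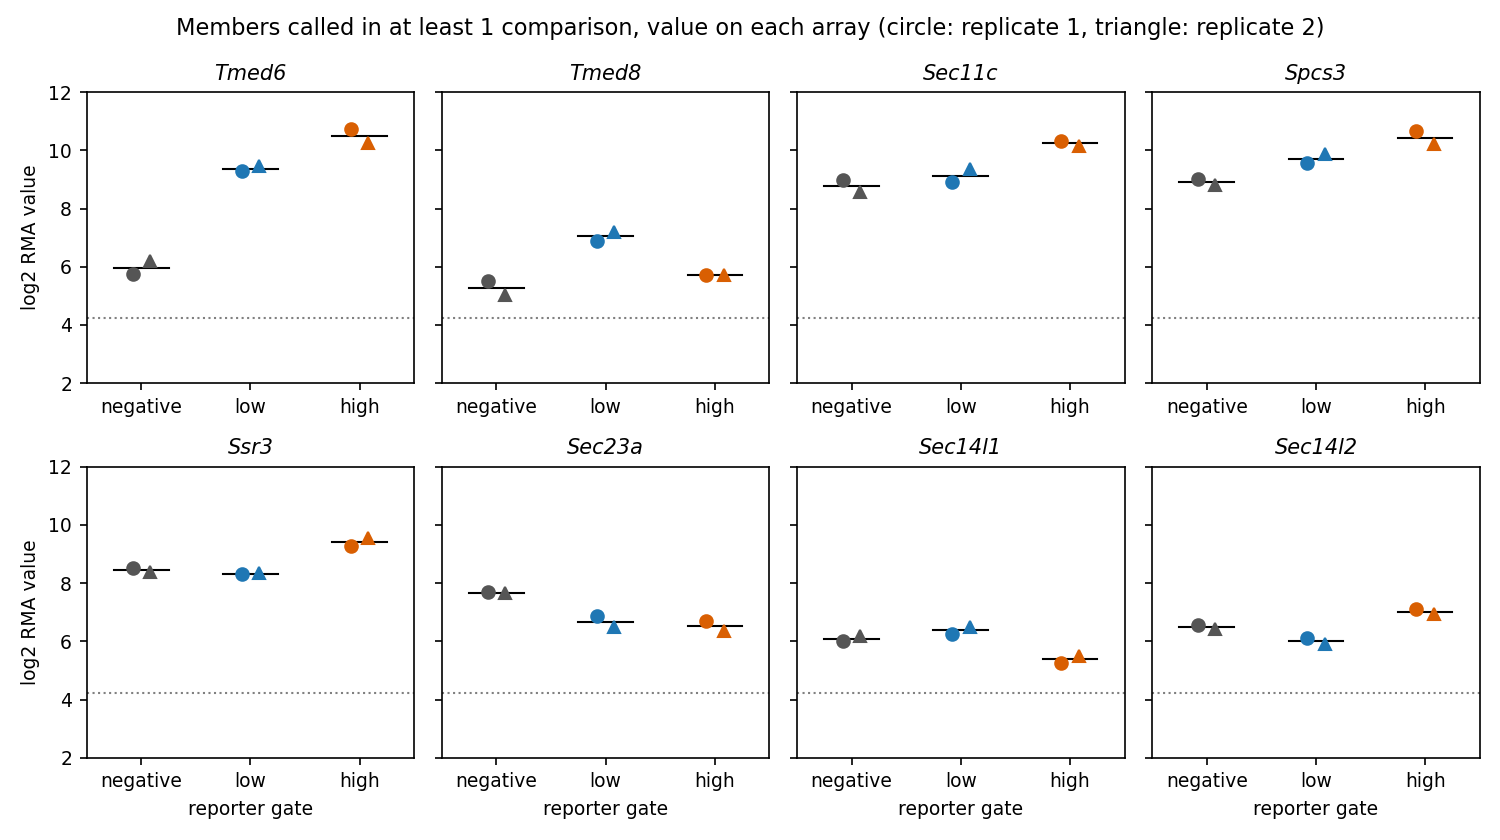
The 8 members called in at least 1 comparison. The vertical axis is the log2 RMA value, each point is 1 array (circle, replicate 1; triangle, replicate 2), horizontal bars are the 2-array means and the dotted line is the background level of 4.23; the Tmed6 values of both reporter gates lie between 9.29 and 10.75, above the negative values of 5.74 and 6.18.

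As a shift of the whole set, the median difference of the members was 0.06 in low against negative cells, where the median over all genes was -0.03. It was 0.25 in high against negative cells, against 0.10 for all genes, and 0.20 in high against low cells, against 0.13. Among genes above background on average, where 61 of the 66 members fall, the medians over all such genes were -0.04, -0.07 and -0.02. Counted by arrays, 19 of the 66 members had both low values above both negative values and 13 of 66 had both below. Of all genes, 23.0% and 28.5% did so. In high against negative cells 30 of 66 were above and 9 of 66 below, where 32.9% and 22.4% of all genes were. In high against low cells 25 of 66 were above and 8 of 66 below, where 35.3% and 20.4% of all genes were. The median in low against negative cells lay at -0.02 without negative replicate 2 and with centred arrays, and at 0.01 without low replicate 2. Without high replicate 1 the median in high against negative cells was 0.11, against 0.12 for all genes, and that in high against low cells 0.07, against 0.14.

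Cell type markers differed between the gates, and they are given here because they were read on the same arrays. The summed intensity of 16 pan-enteroendocrine markers, all above background, was 493 to 517 on the negative, 20231 to 22098 on the low and 888 to 1800 on the high arrays. For 13 Paneth markers, all above background, the sums were 7035 to 9393, 38066 to 41377 and 52073 to 61800. For 8 goblet markers, all above background, they were 23638 to 26842, 17758 to 19596 and 25023 to 28963, and for 9 proliferation genes, all above background, 2078 to 2221, 465 to 509 and 727 to 1027. The sums of 10 plasma cell markers, 9 of them above background, were 496 to 516, 268 to 277 and 243 to 327, and those of 8 T cell markers, all above background, 2095 to 2444, 6510 to 6854 and 601 to 693. For 8 crypt base stem cell markers, all above background, the sums were 3185 to 3357, 1205 to 1779 and 2107 to 2160, and for 10 enterocyte markers, all above background, 16381 to 21009, 8858 to 14724 and 8143 to 11188. Those of 11 myeloid and mast cell markers, 8 of them above background, were 1357 to 1475, 3746 to 4173 and 1247 to 1351. These markers did not move alike: in low against negative cells 4 were called higher and 2 lower. The lower ones were Mcpt1 and Mcpt2, at -3.06 and -2.92. Lyz2 counts in this sum and in the Paneth sum. Irf4 of the plasma cell list and Adgre1 and Cpa3 of the myeloid and mast list were not above background on any array. Called markers split in other lists too, and a sum weighs its brightest genes most. In high against negative cells the stem cell marker Lgr5 was called higher (1.21) and Cdk6 lower (-1.06). The goblet marker Atoh1 was called higher there (2.16) and Clca1 lower (-1.39). In low against negative cells the plasma cell marker Prdm1 was called higher (1.04), and Jchain and Pou2af1 lower (-2.91 and -1.93). The part of these cell types in the results on the members was not tested. In such bulk samples fewer cells of a type and less RNA per cell cannot be told apart. The 2 high arrays were the least alike of the pairs (Pearson r across genes 0.946, against 0.981 for negative and 0.975 for low), and high replicate 2 had 69.6% of genes above background against 61.4% to 65.6% on the others. The Flattop transcript, Cfap126, read 5.39 and 4.79 in negative, 5.16 and 6.13 in low, and 5.15 and 5.0 in high cells, with no call, and the gates overlap except that both high values lay just below both low values.

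The promoters of the members were read for motifs known from secretory and ER stress genes, as a description of their sequence. RefSeq promoter windows of GRCm38.p6, from 250 bases before to 50 after a gene's start, were matched for 56 of the 66 members. The core of the unfolded protein response element (UPRE, TGACGTG on either strand), bound by XBP1 and ATF6, was found in 7 of 56 members (12.5%) and in 2.22% of 27025 genes. These members are Copb1, Copb2, Kdelr3, Sec16b, Sec24d, Srpr and Sec23a, in the last after the start. The ER stress response element (ERSE: CCAAT, 9 bases, CCACG) was found in 1 member, Pdia6 (1.79%, and 0.137% of all genes). The related ERSE-II (ATTGG, 1 base, CCACG) was in 0 of 56 members and 0.044% of genes. The cAMP response element (CRE, TGACGTCA) was in 1 member, Cope (1.79%, against 2.03%), and the E-box CAGCTG, a site type bound by BHLHA15 and other basic helix-loop-helix factors, in 10 (17.9%, against 18.3%). No motif searched contains another. A match is a run of letters and not a measured binding site.

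The sequences are stretches of 60 bases on the strand of the gene, 5′ to 3′, from -60 to -1 of the start, or -110 to -51 for Pdia6. The first 6 hold a UPRE core or the ERSE, in capitals, so that the matched letters can be read in place, and CACGTCA is the UPRE core on the other strand. The last belongs to Tmed6, a called member whose window holds none of these letters.
Kdelr3 (chr15:79516348-79516407, plus strand): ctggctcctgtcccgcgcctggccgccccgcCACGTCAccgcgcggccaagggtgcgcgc
Sec24d (chr3:123267436-123267495, plus strand): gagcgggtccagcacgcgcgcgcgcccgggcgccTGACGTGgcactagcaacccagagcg
Sec16b (chr1:157506736-157506795, plus strand): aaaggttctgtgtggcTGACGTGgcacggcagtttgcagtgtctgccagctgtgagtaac
Copb1 (chr7:114254681-114254740, minus strand): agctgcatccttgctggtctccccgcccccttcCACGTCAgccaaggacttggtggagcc
Srpr (chr9:35211143-35211202, plus strand): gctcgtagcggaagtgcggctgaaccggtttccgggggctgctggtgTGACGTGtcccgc
Pdia6 (chr12:17266479-17266538, plus strand): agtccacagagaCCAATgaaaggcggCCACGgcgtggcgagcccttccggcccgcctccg
Tmed6 (chr8:107065645-107065704, minus strand): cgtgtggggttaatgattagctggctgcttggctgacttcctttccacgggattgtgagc

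At the entry to the pathway are the SRP subunits among the members (Srp9, Srp14, Srp19, Srp68, Srp72) and both chains of the SRP receptor (Srpr, Srprb). These 7 genes gave 0 calls by limma in any comparison. At an unadjusted p under 0.05, 1 of the 7, higher, passed in high against negative cells and 0 passed in the other comparisons. Their differences ran from -0.19 to 0.41 in low and from -0.14 to 0.72 in high against negative cells. Srp9, of the part of the particle that halts translation, read 9.0 and 8.27 in negative, 8.93 and 8.81 in low, and 9.92 and 8.36 in high cells. The gates overlap, and the spread within the high pair exceeded every difference between gate means for this gene. Srpr, the receptor chain that binds the particle and one of the promoters shown with a UPRE core, read 9.18, 8.49, 8.66, 8.72, 8.71 and 8.67 in the same order.

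The Sec61 channel genes among the members also gave 0 calls. At an unadjusted p under 0.05, limma passed 2 of these 5 genes in low and 3 in high against negative cells, all higher. Between high and low cells 0 passed. The median of the 5 differences was 0.33, 0.46 and 0.35 in low against negative, high against negative and high against low cells. Sec61a1, the channel-forming alpha subunit, read 9.36 and 9.26 in negative, 9.32 and 9.58 in low, and 9.83 and 9.71 in high cells, the high arrays above the others. Sec61a2, its paralogue, read 4.65 and 4.6, 5.22 and 5.14, and 4.77 and 5.05, so that its low arrays were the upper pair. Sec61b, the small beta subunit, read 9.95 and 9.87, 9.75 and 9.77, and 9.89 and 10.32. The array has 3 probe sets for Sec61b, which gave -0.15, 0.03 and -0.35 in low against negative cells.

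Sec62 and Sec63 assist the channel with short precursors and recruit the chaperone BiP. They had the widest differences of this group in the comparisons with high cells. Sec62 read 6.94 and 6.62 in negative, 7.39 and 7.54 in low, and 8.24 and 7.53 in high cells, and both reporter gates lay above the negative gate. High against negative cells differed by 1.11 ± 0.28 (adjusted p = 0.0761, 95% interval 0.45 to 1.76), which was not a call. Sec63 read 6.93 and 6.79, 7.13 and 7.25, and 7.37 and 8.12, with no overlap between any of the gates.

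The 4 TRAP subunits did not move alike. Ssr3 read 8.52 and 8.39 in negative, 8.31 and 8.34 in low, and 9.29 and 9.56 in high cells, so the high arrays stood apart. Ssr3 rose by 0.97 ± 0.19 over negative cells (adjusted p = 0.0398) and by 1.10 ± 0.19 over low cells (adjusted p = 0.0252). The first call was lost without negative replicate 1, negative replicate 2 or high replicate 2 (adjusted p = 0.197, 0.23 and 0.08), with the replicate block (0.0511) and in 3 other fits. The second was lost without low replicate 1, low replicate 2 or high replicate 2 (0.138, 0.126 and 0.0592) and in the fit of only the 4 arrays compared (0.0726).

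Ssr4, the delta subunit, read 9.15 and 9.15 in negative, 8.85 and 9.19 in low, and 9.47 and 10.03 in high cells, again with both high arrays on top, and was not called (0.60 ± 0.25 over negative cells, adjusted p = 0.215). Ssr2, the beta subunit, read 10.75 and 10.45, 10.01 and 10.16, and 10.32 and 9.81, the negative pair being the upper one (-0.54 ± 0.24 for high minus negative, adjusted p = 0.247). Ssr1, the alpha subunit, overlapped in all comparisons, with 9.54 and 8.13 on the high arrays.

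Signal peptidase held 2 called genes, and its paired catalytic subunits lay in opposite orders. Sec11c, 1 of the alternative catalytic subunits, read 8.97 and 8.57 in negative, 8.90 and 9.35 in low, and 10.33 and 10.16 in high cells. It rose by 1.48 ± 0.24 in high over negative cells (adjusted p = 0.0246), and its high minus low difference of 1.12 ± 0.24 just missed the threshold (adjusted p = 0.05). Sec11a, the other catalytic subunit, read 9.12 and 8.78, 8.89 and 8.73, and 8.49 and 7.67, with the high pair the lowest. Its differences of -0.87 ± 0.30 from negative cells (adjusted p = 0.153) and -0.73 ± 0.30 from low cells (adjusted p = 0.21) were not called. The difference between the paralogues was not tested.

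Spcs3, a subunit that the complex requires, read 9.03 and 8.80 in negative, 9.55 and 9.86 in low, and 10.66 and 10.20 in high cells. The gates rank negative, low, high with no overlap, and the rise of 1.52 ± 0.24 in high over negative cells was called (adjusted p = 0.0223), while low minus negative, 0.80 ± 0.24, was not (adjusted p = 0.116). The high against negative calls of both genes were lost without either negative array (adjusted p = 0.121 and 0.171 for Sec11c, 0.136 and 0.163 for Spcs3), and that of Sec11c also without high replicate 2 (0.053). Spcs2 read 8.03 and 7.44, 8.12 and 8.53, and 8.31 and 8.80, with no call. Spcs1, a small accessory subunit, read 10.33 and 10.08, 10.20 and 10.29, and 10.59 and 10.32, and the 95% interval of its high minus negative difference ran from -0.23 to 0.72.

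**Figure D2:**
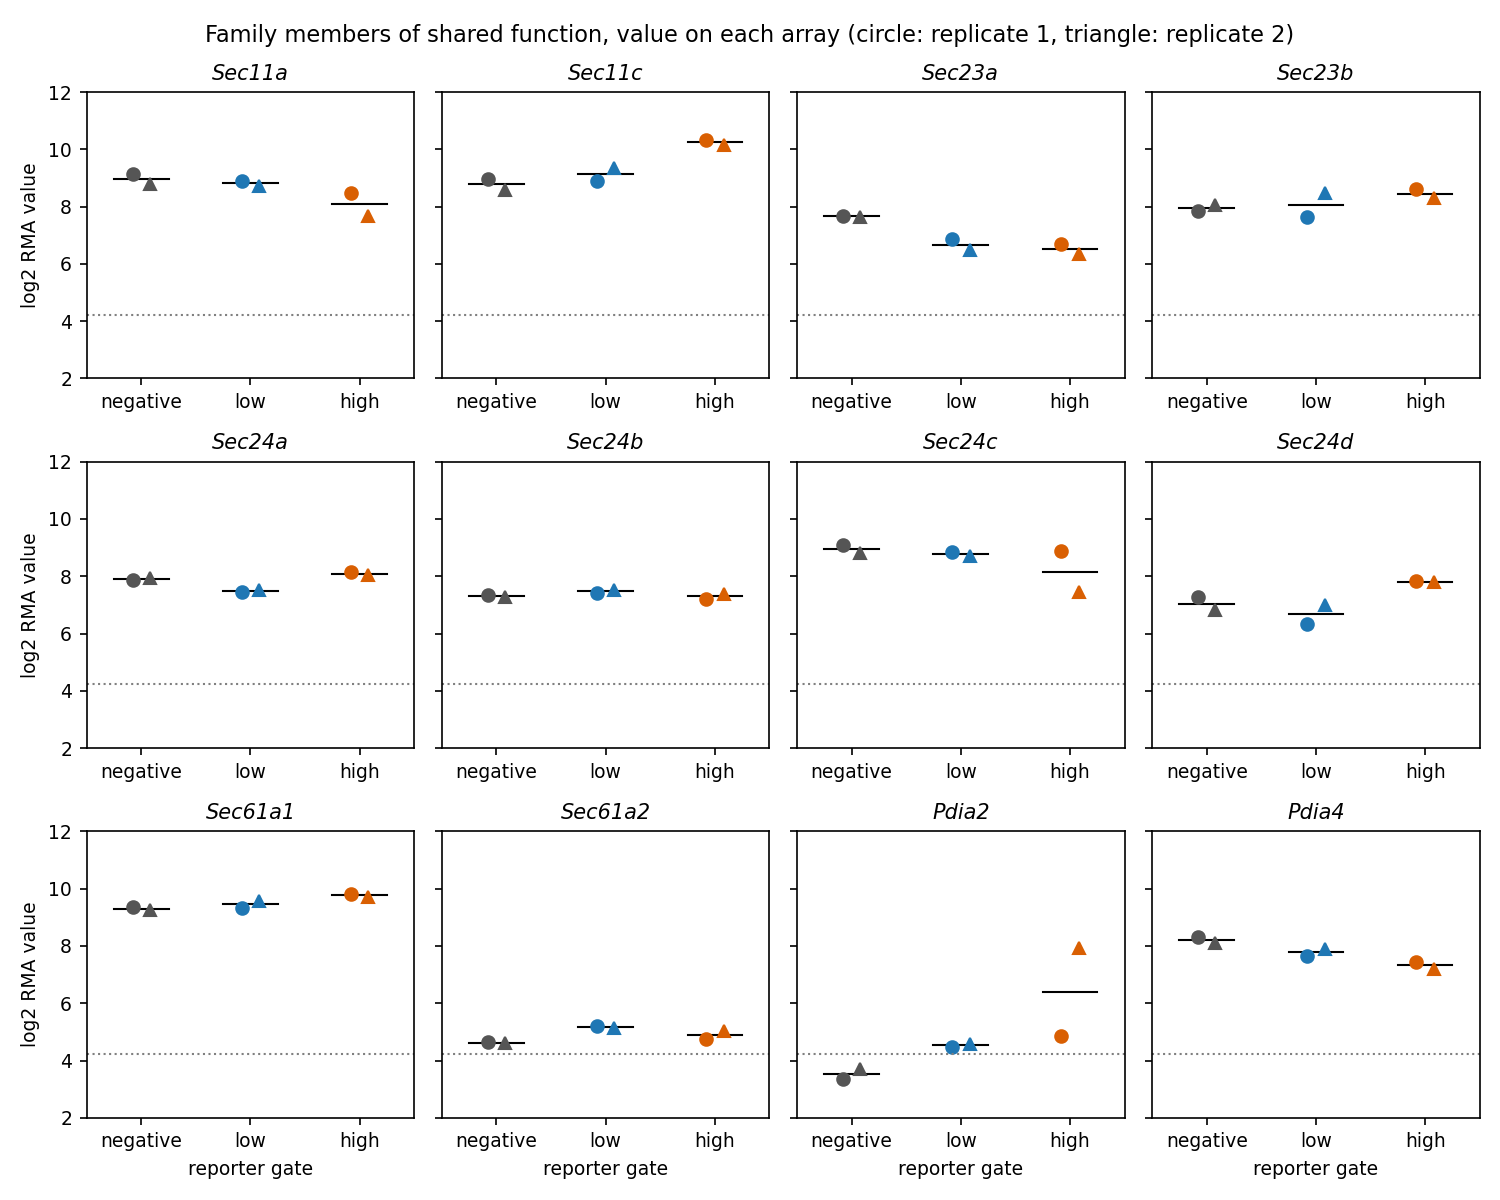
Paralogues of shared function, plotted as log2 RMA values on each array (circle, replicate 1; triangle, replicate 2) with the gate mean as a bar and the background level of 4.23 as a dotted line. Sec11c is highest in the high gate where Sec11a is lowest, Sec23a is lower in both reporter gates than in the negative gate, and Pdia2 reaches 7.92 on 1 high array only.

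Protein disulfide isomerases gave 0 calls by limma, and at an unadjusted p under 0.05 passed 0 of 5 genes in low against negative cells, 1 higher and 1 lower in high against negative cells, and 0 between high and low cells. Pdia3 (ERp57), which folds glycoproteins with calnexin and calreticulin, read 9.82 and 9.72 in negative, 9.93 and 9.54 in low, and 9.78 and 9.49 in high cells, with full overlap. Pdia4 (ERp72) read 8.30 and 8.10, 7.66 and 7.89, and 7.45 and 7.20. Its gates rank negative, low, high from the top with no overlap, and high minus negative was -0.87 ± 0.20 (adjusted p = 0.0634), called lower with arrays centred on their medians. A second Pdia4 probe set was not above background on any array. Pdia6, whose promoter holds the ERSE shown, overlapped in all comparisons.

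Pdia2, an isomerase best known from the pancreas, was not above background on either negative array (3.37 and 3.72), lay just above it in low cells (4.48 and 4.58) and read 4.87 and 7.92 in high cells. With the negative gate taken at the background level, high minus negative was at least 2.17 on the log2 scale. The high mean rests on high replicate 2, and the fit did not call the difference (adjusted p = 0.115).

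The COPII group showed a call in opposite direction to those in the translocon groups. Sec23a, which with Sec24 forms the inner coat and activates the GTPase SAR1, read 7.68 and 7.65 in negative, 6.86 and 6.48 in low, and 6.70 and 6.35 in high cells. All 4 reporter arrays lay below both negative arrays. Sec23a fell by 0.99 ± 0.22 in low cells (adjusted p = 0.0497) and by 1.14 ± 0.22 in high cells (adjusted p = 0.039). Both calls were lost without either negative array (0.252 and 0.228 in low, 0.219 and 0.204 in high cells), that in low cells also without low replicate 1 or 2 (0.0942 and 0.249), and that in high cells without high replicate 2 (0.0879). Quantile normalization ended both (0.0518 and 0.0864), as did a mean-variance trend (0.0913 and 0.0653).

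Its paralogue Sec23b read 7.83 and 8.05 in negative, 7.62 and 8.48 in low, and 8.60 and 8.30 in high cells, and the high arrays were above the negative ones (0.51 ± 0.31, adjusted p = 0.365, no call). Among the cargo-binding Sec24 genes, Sec24d read 7.29 and 6.81, 6.34 and 7.0, and 7.82 and 7.79, a high minus low difference of 1.14 ± 0.28 (adjusted p = 0.0749). Sec24a read 7.88 and 7.93, 7.47 and 7.52, and 8.14 and 8.05, ranking low, negative, high without overlap. Sec24b stayed between 7.22 and 7.52 on all arrays. Sec24c was between 8.70 and 9.08 on all arrays but high replicate 2, where it read 7.46.

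Of the outer coat and exit site genes, Sec13 read 8.74 and 8.58 in negative, 8.02 and 7.78 in low, and 8.03 and 7.96 in high cells. Like Sec23a it was lower on all 4 reporter arrays, with no call (-0.76 ± 0.19 in low cells, adjusted p = 0.0695). Sec31a, its partner in the outer cage, read 9.26 and 9.35, 9.40 and 9.43, and 9.89 and 9.48, with both reporter gates above the negative gate and the high gate on top (0.38 ± 0.21 in high over negative cells, adjusted p = 0.318). Sec16a, a scaffold of ER exit sites, ranked negative, low, high without overlap at 7.45 and 7.29, 7.54 and 7.65, and 7.90 and 7.91. Over the 15 genes of this group, Sec22 SNAREs included, the median difference was -0.05 in low and 0.26 in high against negative cells.

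The 7 COPI coat genes among the members gave 0 calls by limma in any comparison. At an unadjusted p under 0.05, 2 of the 7 passed in low and 2 in high against negative cells, all lower. Between high and low cells 0 passed. The symbol rule does not take Copz2, the paralogue of Copz1. That gene was called higher in high cells than in negative and in low cells, and is given with the ER to Golgi genes below. Copa, the alpha subunit, read 9.32 and 9.13 in negative, 9.35 and 9.32 in low, and 9.50 and 9.07 in high cells. The gates overlap, and the 95% interval of high minus negative ran from -0.45 to 0.56. Cope, the epsilon subunit, read 9.34 and 9.29, 8.34 and 8.85, and 8.87 and 8.68, with the negative arrays above all others (-0.72 ± 0.23 in low cells, adjusted p = 0.135). Copz1, of the zeta position, also had the negative arrays on top, at 8.95 and 8.75, 8.36 and 8.36, and 8.48 and 8.35. The median over the 7 genes was -0.29 in low and -0.21 in high against negative cells, and with quantile normalization the second became 0.12.

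**Figure D3:**
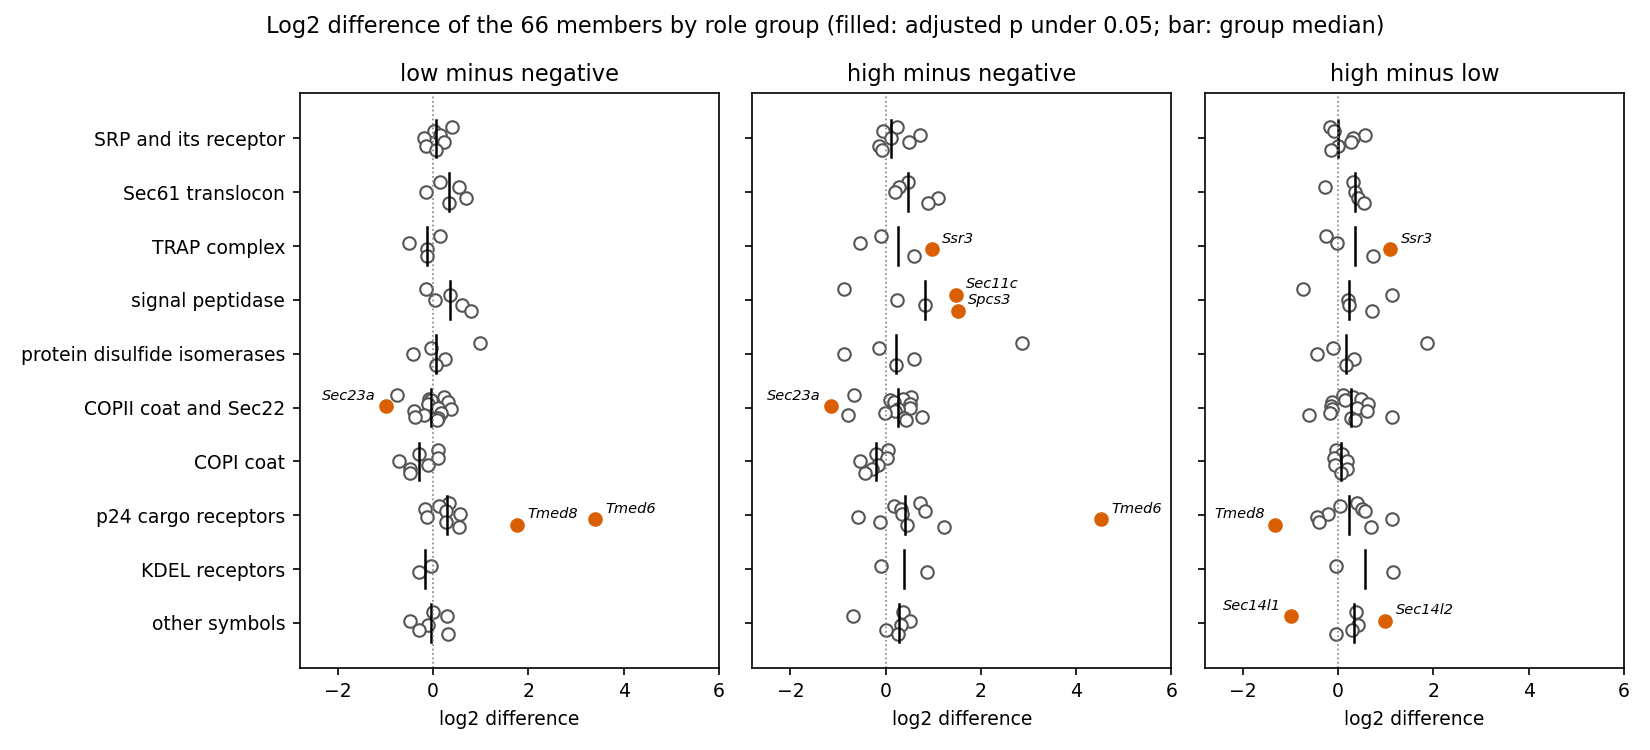
Log2 difference of each of the 66 members in the 3 comparisons, by role group. Each circle is 1 gene, filled circles are called at an adjusted p under 0.05 and black bars are group medians; the COPI medians lie at -0.29 and -0.21 against negative cells, and Tmed6 lies apart from all others at 3.41 and 4.53.

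The p24 proteins span the vesicle membrane with a lumenal GOLD domain and sort cargo such as GPI-anchored proteins. Tmed6, of the gamma branch, read 5.74 and 6.18 in negative, 9.29 and 9.45 in low, and 10.75 and 10.24 in high cells. Both reporter gates lay far above the negative gate, and the high arrays above the low ones. Tmed6 rose by 3.41 ± 0.25 in low cells (adjusted p = 0.0013) and by 4.53 ± 0.25 in high cells (adjusted p = 0.0014). Both calls held in all 13 alternatives, with differences from 3.19 to 3.63 and from 4.28 to 4.79. High minus low was 1.12 ± 0.25, not called (adjusted p = 0.0587). Its gate order, negative, low, high, is also that of the Paneth marker sums. Of those 13 markers, 2 were called higher and 0 lower in high against low cells. The enteroendocrine, T cell and myeloid and mast sums are highest in low cells, as the Tmed8 values are. A relation of these cell types to either gene was not tested.

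Tmed8, which carries a GOLD domain, had the opposite order of the reporter gates. It read 5.51 and 5.04 in negative, 6.88 and 7.20 in low, and 5.72 and 5.71 in high cells, and the low arrays stood above the other 4. Tmed8 rose by 1.77 ± 0.23 in low over negative cells (adjusted p = 0.0085) and fell by 1.32 ± 0.23 from low to high cells (adjusted p = 0.026). High minus negative was 0.44 ± 0.23 (adjusted p = 0.306). The first call was lost without negative replicate 2 or low replicate 2 (0.0753 and 0.0627). The second was lost without low replicate 1, low replicate 2 or high replicate 2 (0.0806, 0.149 and 0.07) and with array weights (0.0617).

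The other p24 genes gave no call. Tmed9, of the alpha branch, read 6.36 and 6.78 in negative, 6.80 and 7.42 in low, and 7.37 and 8.23 in high cells, and its high minus negative difference of 1.23 ± 0.35 (adjusted p = 0.108) was called higher with the replicate block. Tmed10 and Tmed3 ranked negative, low, high without overlap, at 9.42 and 9.16, 9.64 and 9.60, and 10.33 and 9.72 for Tmed10. On a second Tmed10 probe set the low (6.88 and 7.19) and high (7.08 and 7.54) values overlapped. Tmed4 read 9.65 and 9.17, 9.65 and 10.29, and 9.48 and 10.05, with overlap throughout. Tmed2, the beta member, differed by -0.18 in low and 0.32 in high against negative cells, and its 2 other probe sets gave -0.24 and -0.42, and 0.23 and 0.33. Tmed11 was not above background on any array.

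KDEL receptors return escaped ER proteins from the Golgi. Kdelr1 read 8.37 and 8.73 in negative, 8.56 and 8.47 in low, and 8.42 and 8.51 in high cells, and the 95% interval of high minus negative ran from -0.56 to 0.39. Kdelr3, whose promoter with a UPRE core is shown, read 4.12 and 5.04, 4.44 and 4.13, and 5.67 and 5.23. It lay near background outside the high gate, and the high arrays were above all others (1.16 ± 0.34 over low cells, adjusted p = 0.111). At an unadjusted p under 0.05, limma passed Kdelr3 in both comparisons with high cells.

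The symbol rule also took 6 genes outside the machinery. Sec14l1 and Sec14l2 encode lipid-binding proteins of the Sec14 family, and Sec1 a fucosyltransferase relative. Sec14l2 read 6.57 and 6.44 in negative, 6.12 and 5.91 in low, and 7.09 and 6.93 in high cells, and ranked low, negative, high without overlap. Sec14l1 read 6.0 and 6.17, 6.26 and 6.50, and 5.27 and 5.51, in the reverse rank. From low to high cells Sec14l2 rose by 1.0 ± 0.19 (adjusted p = 0.0356) and Sec14l1 fell by 0.99 ± 0.20 (adjusted p = 0.0424). Both calls were lost when any low or high array was left out (adjusted p from 0.0546 to 0.213), and with array weights, a mean-variance trend or only the 4 arrays compared (0.0647 to 0.101). Sec14l3, Sec14l4 and Sec14l5 were not above background on any array.

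Other genes of the pathway were counted from lists of partners. Of 20 ER chaperones and lectins, 0 were called in low against negative cells (2 higher and 1 lower at an unadjusted p under 0.05), 2 were called higher in high against negative cells, and 0 in high against low cells (5 higher at that p). Ero1b, an oxidase that recharges disulfide isomerases, read 5.36 and 5.46 in negative, 6.20 and 6.76 in low, and 7.40 and 7.13 in high cells. It rose by 1.85 ± 0.24 in high cells (adjusted p = 0.0166), and Dnajc3, a co-chaperone of BiP, by 1.3 ± 0.18 (adjusted p = 0.0185). Both lost the call without either negative array (adjusted p from 0.128 to 0.148). Of 12 oligosaccharyltransferase genes, 1 was called in low against negative cells and 0 by limma in the comparisons with high cells (4 higher and 0 lower against negative, 4 higher and 1 lower against low cells at an unadjusted p under 0.05). That gene, Tusc3, a subunit with oxidoreductase activity, lay at 5.03 and 5.65 in negative, 7.26 and 7.11 in low, and 6.34 and 6.07 in high cells. It rose by 1.85 ± 0.25 in low cells (adjusted p = 0.0105), a call lost without negative replicate 1 or either low array (0.0802, 0.0611 and 0.0581).

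Of 18 translocon partners and tail-anchor insertion genes, Tram1 was called higher and Emc8 lower in high against negative cells. Tram1, which contacts the chain inside the translocon, read 9.09 and 8.57 in negative, 9.14 and 9.16 in low, and 10.10 and 10.29 in high cells, the high arrays standing apart as for Ssr3. It rose by 1.36 ± 0.23 (adjusted p = 0.0258), a call lost without either negative array or high replicate 2 (0.108, 0.166 and 0.0663) and with only the 4 arrays compared (0.0543). Emc8, of the ER membrane complex, fell by 0.93 ± 0.20 in low and by 1.04 ± 0.20 in high cells, and Emc10 of the same complex fell by 1.01 ± 0.19 from low to high cells. Both Emc8 calls were lost whichever array of the gates compared was left out, and that of Emc10 without either low array or high replicate 2 (adjusted p from 0.0554 to 0.266). Quantile normalization and a mean-variance trend also ended all 3 (0.066 to 0.113).

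Of 36 ER to Golgi genes, 3 were called higher and 1 lower in high against negative cells, 2 higher and 0 lower in high against low cells, and 0 in low against negative cells (1 higher and 2 lower at an unadjusted p under 0.05). Copz2, a paralogue of the COPI zeta subunit Copz1, read 4.84 and 4.54 in negative, 5.53 and 5.83 in low, and 8.93 and 7.86 in high cells. It rose by 3.71 ± 0.36 in high over negative cells (adjusted p = 0.0086) and by 2.71 ± 0.36 over low cells (adjusted p = 0.0093). The first call was lost without either negative array (0.092 and 0.116) and the second without low replicate 1 (0.0633). Ergic1, a cargo-cycling protein of the intermediate compartment, rose by 1.39 ± 0.22 over negative and by 1.47 ± 0.22 over low cells. Mia3 (TANGO1), a receptor for bulky cargo, rose by 1.39 ± 0.28 (adjusted p = 0.0425), and the SNARE gene Gosr2 fell by 1.08 ± 0.23 (adjusted p = 0.0493). Ergic1 lost its calls without either negative array (0.168 and 0.15) and without either low array (0.0985 and 0.0668), and Mia3 and Gosr2 lost theirs whichever array was left out (0.0531 to 0.248).

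**Figure D4:**
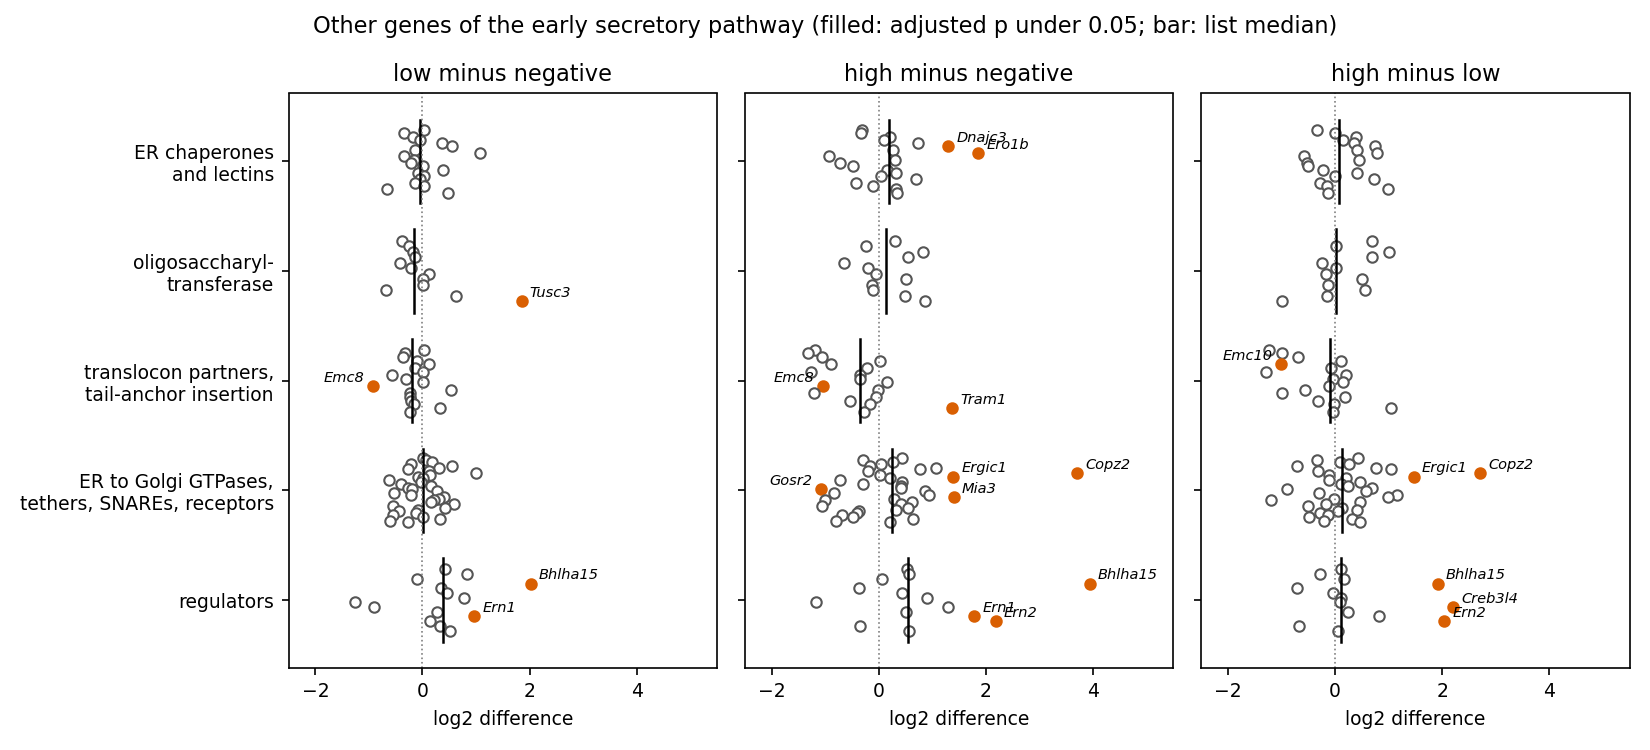
Log2 differences of the other pathway genes by list in the 3 comparisons. Each circle is 1 gene, filled circles are called at an adjusted p under 0.05 and black bars are list medians; Bhlha15 (3.94) and Copz2 (3.71) lie farthest from 0 in high against negative cells.

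Of 14 regulators of secretory genes, 2 were called higher in low against negative cells, 3 in high against negative cells and 3 in high against low cells, with none lower in these comparisons. Bhlha15 (Mist1), a transcription factor of specialised secretory cells, read 5.71 and 5.66 in negative, 7.47 and 7.95 in low, and 9.43 and 9.81 in high cells. The gates do not overlap, and Bhlha15 rose by 2.02 ± 0.24 in low and by 3.94 ± 0.24 in high over negative cells (adjusted p = 0.0062 and 0.0019), and by 1.92 ± 0.24 from low to high cells (0.0077). Its call in low cells was lost without either negative array (0.0691 and 0.0665). Xbp1 and Atf6, whose products bind the UPRE, were not called. Xbp1 read 7.79 and 7.85 in negative, 8.21 and 8.45 in low, and 8.75 and 8.03 in high cells (adjusted p = 0.407 and 0.265 against negative cells). Atf6 read 7.57 and 7.44, 8.12 and 8.55, and 8.11 and 8.01 (0.0745 and 0.189), and for both genes the reporter arrays lay above the negative ones.

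Both genes of the IRE1 ER stress sensor were called. Ern1 (IRE1 alpha) read 6.19 and 6.26 in negative, 7.15 and 7.23 in low, and 8.15 and 7.85 in high cells, and rose by 0.96 ± 0.19 and 1.78 ± 0.19 (adjusted p = 0.0343 and 0.0111). Ern2 (IRE1 beta), a form of mucosal epithelia, read 7.47 and 7.55, 7.41 and 7.90, and 10.14 and 9.23, and rose by 2.18 ± 0.33 over negative and by 2.04 ± 0.33 over low cells (0.0209 and 0.0201). Creb3l4, a membrane-bound transcription factor, rose by 2.20 ± 0.29 from low to high cells (0.0093). The calls of Ern1 and Ern2 against negative cells were lost without either negative array (adjusted p from 0.108 to 0.211), that of Ern1 in low cells also without either low array (0.134 and 0.179) and with centred arrays (0.0509), and that of Ern2 over low cells without low replicate 1 or 2 (0.117 and 0.0591) and with only the 4 arrays compared (0.058). Creb3l4 lost its call without low replicate 2 (0.0634).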

How the data were processed

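Gene expression was read from the table of values the authors deposited, which are log2 values. The submitters' processing notes name RMA and Affymetrix Expression Console 1.3.0.187, and further settings were not found in the labels or headers. Values ran from 1.90 to 13.98. The 6 reporter arrays were used, and the columns of 12 further arrays, all empty in the table used, were not. Probe sets with 1 gene symbol in the platform annotation gave 19938 genes. A further 6 probe sets that name a member among several symbols were left out. The members do not cover every subunit of each complex. The background level, 4.23, is the 95th percentile of 1207 olfactory, vomeronasal and trace amine receptor genes. All genes were fitted with limma 3.58.1 (lmFit and eBayes, R 4.3.3) as 3 gate means over 6 arrays, leaving 3 residual degrees of freedom. Two-sided p-values were adjusted by Benjamini-Hochberg. The script was tested on simulated data. The number of arrays limits the precision.

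The named genes are members called in any comparison, the member of each role group with the highest mean, and up to 3 genes with the smallest p of each list; other members and promoters shown were chosen after their values were seen. Members and lists were chosen with earlier results of these data known. Alternatives covered the prior, the arrays fitted, dim genes, probe sets, scaling, array weights, a replicate block and leaving out each array. Tables and plots used Python 3.11.15, pandas 2.3.3 and matplotlib 3.10.9. No set test was made, and role groups are described by counts and medians.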

Additional observations from a re-analysis of the deposited data

How the results depend on the processing

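The number of members called in low against negative cells, 3, became 5 with array weights and 1 to 2 when single arrays were left out. In high against negative cells the 5 became 3 with a mean-variance trend, with only the 4 arrays compared and with array weights, and 1 to 11 without single arrays. In high against low cells the 4 became 2 with the trend, 1 with the 4 arrays, 8 with quantile normalization, 1 with array weights and 0 to 6 without single arrays. The median member difference in low against negative cells, 0.06, was -0.0159 with centred arrays, 0.12 with quantile normalization and between -0.0159 and 0.0959 without single arrays, and that in high against negative cells was 0.46 with quantile normalization. The causes were not tested. Without high replicate 1 the medians in high against negative and high against low cells, 0.25 and 0.20, became 0.11 and 0.07, neither above that of all genes (0.12 and 0.14). Other alternatives kept these counts within 1.5 times, and no called member changed sign in any alternative. Deviations of same-numbered arrays from their gate means correlated between gates at 0.10, 0.10 and 0.08. This cannot tell whether replicate numbers pair the samples, because the spread between arrays can hide shared animals. With the replicate block the counts were 3, 5 and 4. A gate with 1 array left was assumed to vary like the others. With 2 arrays a gate, genes near the background of 4.23 have differences that are hard to read.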
